A study of Mus musculus with 39 samples.

Results

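The comparison described here asks whether the colon of mice without Cd177 responded to acute pancreatitis differently from the colon of wild-type mice. It is an interaction: the difference between pancreatitis and sham in the knockout, minus the same difference in wild type, taken for each gene on log2(FPKM + 1). FPKM is a level scaled to transcript length and to the size of the library. All 19 colon libraries of the 39 libraries of the series entered, with 5 wild-type sham (WT sham), 5 wild-type acute pancreatitis (WT AP), 5 Cd177 knockout sham (KO sham) and 4 knockout acute pancreatitis (KO AP) libraries. The mice were of the C57BL/6N background, the sham groups had a sham operation, and the knockout is given as Cd177 KO in the labels. The sources used here do not give age, sex, the way pancreatitis was induced, the time of sampling or the construction of the knockout allele. Of 55357 genes in the colon table, 15001 reached 1 FPKM in 4 or more libraries and were tested.

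CD177 is a glycoprotein best known from the surface of neutrophils, where it associates with the protease proteinase 3 and with the adhesion molecule PECAM-1. In the colon, acute pancreatitis is known as a condition in which the mucosal barrier can fail: the single layer of epithelium, its tight junctions and its mucus. That epithelium is renewed from dividing crypt cells, which mature into absorptive colonocytes and mucus-secreting goblet cells. An interaction of 0 means equal responses in both genotypes. A negative value means that pancreatitis went with a lower level, relative to sham, in the knockout than in wild type.

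Cd177 itself was at 0 FPKM in all 9 knockout libraries, and between 38.5 and 76.4 FPKM in the 10 wild-type libraries, as the genotype labels have it. Its interaction of −0.47 is therefore only the wild-type response with its sign turned (mean level 43.2 ± 5.6 FPKM without and 60.7 ± 11.5 FPKM with pancreatitis, SD, n = 5 each). Which cells of the colon carried Cd177 was not tested. Levels of Muc2, the main colonic mucin, between 113 and 847 FPKM, and of Slc26a3, the chloride exchanger of colonocytes, between 146 and 886 FPKM, fit the tissue label in every library.

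Several libraries stood apart from their groups. KO sham replicate 1 correlated better with the KO AP libraries (mean r over genes of 0.957) than with the other KO sham libraries (0.940). KO AP replicate 1 did the reverse, with a mean r of 0.945 to KO sham and 0.934 to its own group, and KO AP replicate 4 likewise (0.946 and 0.940). Among the wild-type libraries, WT sham replicate 2 had the lowest mean r to its own group, 0.942 against 0.9715 to 0.9753 for the other WT sham libraries. Its mean r to WT AP was slightly higher, 0.944. WT AP replicates 2, 3 and 4 also correlated slightly better with WT sham (0.9696, 0.9706 and 0.962) than with their own group (0.9654, 0.9694 and 0.96). Such crossing was thus not limited to the knockout, but its gaps were smaller in wild type. Depth, recovered from the steps of the values, was 55.6 to 78.3 M reads in wild type and 77.7 to 98.6 M reads in the knockout. Mitochondrially encoded transcripts took 10.6% to 19.1% of the FPKM in KO AP, 4.62% to 13.5% in KO sham, and 7.02% to 14.1% in wild type. Longer transcripts tended to higher interactions (Spearman coefficient 0.231 across genes, which are not independent replicates). Treatment labels were kept as given. No value here checks them as Cd177 checks the genotype, so every interaction and count below assumes that the treatment labels of these libraries are right. What set the libraries apart was not tested.

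With all 19 libraries no gene passed an adjusted p of 0.05 for the interaction in limma, or 0% of those tested. The lowest adjusted p was 0.0783, and 30 genes had an adjusted p under 0.1. No other tool was run, since the values are not counts. At an unadjusted p under 0.05, a looser rule, there were 2821 genes (18.8% of those tested), of which 1115 had a positive interaction (7.43%) and 1706 a negative one (11.4%). These percentages are the background for the counts of list members below, and a gene counted by this looser rule is not a called gene. The excess of negative values depended on scaling. Negative values made up 60.5% of these genes as deposited and 60.3% with each library scaled to the same FPKM total (TPM scaling). They made up 49.5% with each library centred on its median and 39.2% with upper quartile scaling. With the mitochondrially encoded genes taken out of the totals they made up 39.1%. That last setting moved the median interaction of all genes from −0.03 to 0.11, and upper quartile scaling to 0.07. A filter of at least 5 FPKM in 4 or more libraries gave a negative share of 69.3%. By sign alone, as deposited, 7890 of the 15001 genes tested were negative and 7111 positive, the background for list members counted by sign. Beside that, the responses of the genotypes pointed in opposite directions for 62.9% of all genes tested. Among the 2821 genes it was 95.9%, a share that choosing by the difference raises. The knockout response was the larger in 79.1% of the 2821, a share not counted over all genes tested. Over all of these, too, the median absolute response was larger in the knockout (0.2166) than in wild type (0.1435).

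**Figure D1:**
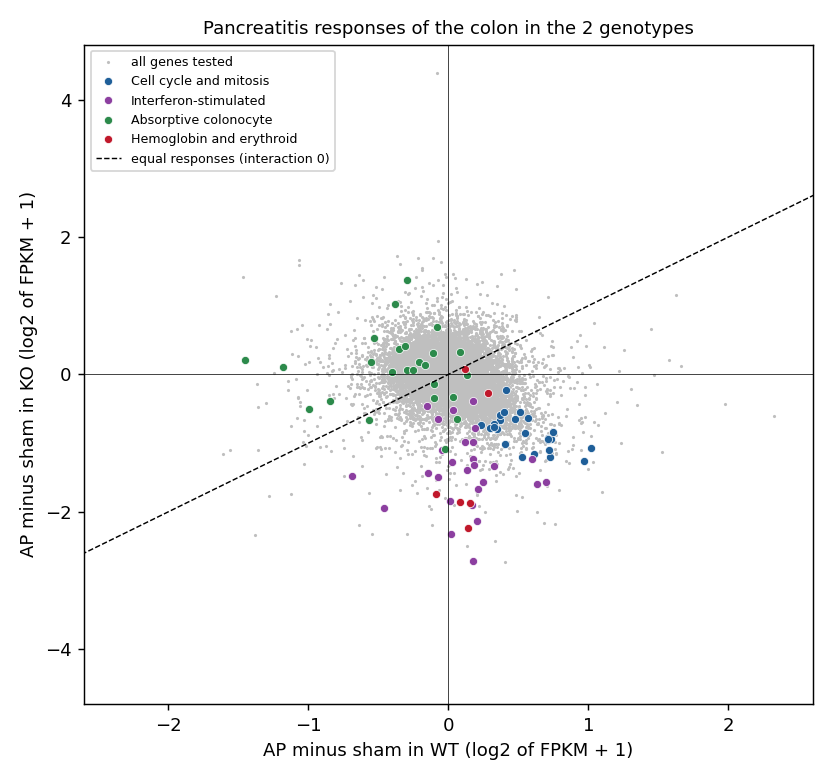
Response to acute pancreatitis in wild-type colon (x axis) and in knockout colon (y axis), each as AP minus sham on log2(FPKM + 1), for all 15001 genes tested (grey) and 4 gene lists. Points below the dashed line have a negative interaction; the 25 cell cycle genes (blue) all lie to the right of 0 in wild type and below 0 in the knockout.

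Leaving out a single library changed this count more than any scaling did. Without KO sham replicate 1, 1170 genes passed an adjusted p of 0.05, 330 with a positive interaction (2.2% of those tested) and 840 with a negative one (5.6%). All 1170 kept their sign in the full set of libraries, where 1150 of them had an unadjusted p under 0.05. Without KO AP replicate 1, 228 genes passed, and 204 of them were also among the 1170. These fits share most of their libraries. Across genes, the interactions with all libraries and without KO sham replicate 1 had a Spearman coefficient of 0.988. Agreement of signs and calls between the fits was therefore largely fixed beforehand. Without any one of the other 17 libraries the count was 0, KO AP replicate 4 and WT sham replicate 2 included. Values without KO sham replicate 1 or KO AP replicate 1 are given beside genes below because these 2 omissions, and no other, gave any calls. Since the omissions were chosen by that outcome, adjusted p-values given with them are too favourable. They describe how a gene depends on the library and are not support for its interaction.

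**Figure D2:**
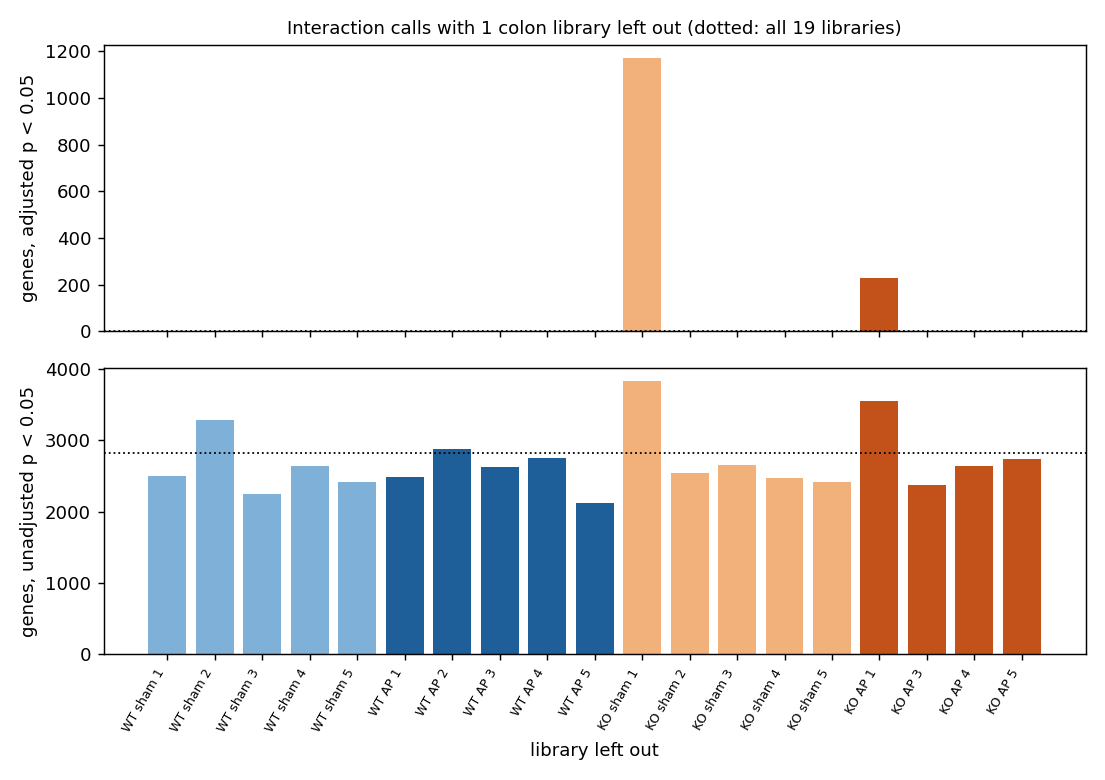
Number of genes with an adjusted p under 0.05 (upper panel) and with an unadjusted p under 0.05 (lower panel) for the interaction when 1 of the 19 colon libraries is left out; the dotted line is the count with all libraries. Calls at the adjusted threshold appear only when KO sham 1 (1170) or KO AP 1 (228) is omitted, and the unadjusted counts run from 2118 to 3825.

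None of the 20 genes with the lowest p passed with all libraries, at adjusted p-values of 0.0783 to 0.0974. All 20 passed without KO sham replicate 1, and again when KO AP replicate 1 was the library left out. In other omissions their adjusted p reached 0.197 to 0.215. The lowest p belonged to Mid1ip1, which codes for a partner of acetyl-CoA carboxylase in fatty acid synthesis. Its levels were 36.6, 33.2, 33.0, 33.6 and 35.2 FPKM in WT sham and 39.0, 41.9, 37.3, 54.8 and 45.5 in WT AP. They were 79.1, 82.9, 79.5, 96.5 and 91.8 FPKM in KO sham and 59.4, 54.4, 51.1 and 53.5 in KO AP. The pancreatitis libraries thus all lay above the sham libraries in wild type and all below them in the knockout, without overlap. The interaction was −0.97 ± 0.15 (SE), adjusted p = 0.0783, and −1.0 without KO sham replicate 1, adjusted p = 0.00447.

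Kifc1 codes for a kinesin motor of the mitotic spindle, and measured 11.96, 4.32, 7.75, 7.83 and 6.53 FPKM in WT sham and 10.9, 10.5, 14.1, 10.8 and 17.3 in WT AP. In the knockout it was at 5.69, 10.8, 11.9, 11.8 and 12.1 FPKM in sham and at 4.16, 2.13, 4.78 and 4.28 in AP. The low KO sham value is replicate 1, and even that lay above all 4 KO AP libraries. Its interaction was −1.94 ± 0.35 (SE), adjusted p = 0.0809, and −2.12 without KO sham replicate 1, adjusted p = 0.00360. Cks1b, a small subunit that binds cyclin-dependent kinases, was at 14.2, 12.3, 10.9, 12.3 and 8.08 FPKM in WT sham and 24.2, 19.7, 18.0, 20.2 and 28.9 in WT AP. Its knockout values were 16.4, 39.8, 35.3, 32.8 and 28.7 FPKM in sham and 20.7, 7.13, 16.2 and 15.3 in AP. The wild-type groups did not overlap, and in the knockout only KO sham replicate 1 and KO AP replicate 1 broke the separation. The interaction was −1.92 ± 0.36 (SE) with an adjusted p of 0.0906. Bub3, of the spindle checkpoint, had group means of 21.1 ± 2.18 (WT sham), 27.4 ± 3.25 (WT AP), 36.6 ± 4.34 (KO sham) and 23.9 ± 3.48 FPKM (KO AP; SD, n = 5, 5, 5 and 4). H2afx, the histone variant that marks DNA breaks when phosphorylated, and Ube2s, which extends ubiquitin chains for the anaphase-promoting complex, had interactions of −1.54 and −1.44. For H2afx the sham library of lowest level in the knockout was again replicate 1, at 47.4 FPKM against 85.9 to 102.5 in the other 4.

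Other negative interactions among the 20 belonged to genes of RNA processing and of the mitochondrial ribosome. Snrpb and Snrpf code for Sm proteins, the common core of the spliceosomal ribonucleoproteins. Snrpb was at 72.2 to 81.6 FPKM in WT sham and 85.0 to 112.9 in WT AP, without overlap. In the knockout it was at 97.5, 175.1, 140.8, 164.8 and 159.9 FPKM in sham and 87.3, 93.4, 68.5 and 93.8 in AP, also without overlap, with KO sham replicate 1 the lowest of the sham libraries. The interaction was −1.05 for Snrpb, −1.60 for Snrpf, −1.06 for Mrps11 of the mitochondrial ribosome, and −1.02 for Klhdc4, a kelch domain gene.

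The remaining 10 had positive interactions. Matr3 codes for the nuclear matrix protein matrin 3, which binds RNA, and had 17.5, 14.99, 19.1, 16.0 and 19.8 FPKM in WT sham and 15.5, 16.7, 16.6, 15.8 and 14.6 in WT AP. Its KO sham libraries were close together, at 14.5, 14.8, 14.8, 14.6 and 15.05 FPKM, and all KO AP libraries lay above every other library, at 21.8, 26.4, 21.0 and 23.9. For Matr3, unlike the cell division genes, KO sham replicate 1 lay with its group. Its interaction was 0.75 ± 0.13 (SE), adjusted p = 0.0809. Mrtfb, a coactivator of serum response factor, had the largest interaction of the 20, 2.73 ± 0.53 (SE), adjusted p = 0.0906. It was at 5.94, 5.84, 7.35, 5.97 and 5.99 FPKM in WT sham and 0.845, 5.39, 2.39, 1.07 and 4.78 in WT AP. In KO sham it was at 3.72, 0.0996, 0.439, 0.301 and 0.297 FPKM, and in KO AP at 4.56, 4.05, 4.23 and 4.19. The 4 KO sham libraries other than replicate 1 were thus near 0, and the WT AP libraries were spread widely. Slc15a1, the intestinal peptide transporter, was at 33.8 to 92.3 FPKM in KO AP and at 17.7 to 31.9 in KO sham, without overlap, while WT sham (24.7 to 45.3) and WT AP (18.3 to 29.4) overlapped. Its interaction was 1.71 ± 0.35 (SE), adjusted p = 0.0906. Slc10a5, of the bile acid transporter family, was low in the knockout throughout, at 0.325 to 0.514 FPKM in sham and 0.572 to 2.25 in AP. In wild type it was at 3.22 to 5.83 FPKM in sham and 1.47 to 3.36 in AP, and its interaction was 1.53. The other 6 were the phosphatase gene Phlpp2 (1.0), the scramblase gene Plscr4 (1.27), the demethylase-family gene Jmjd1c (0.75), the cortactin-binding Cttnbp2 (1.43), the ankyrin-repeat gene Sowahc (1.10) and the kinase anchor Akap9 (0.82).

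**Figure D3:**
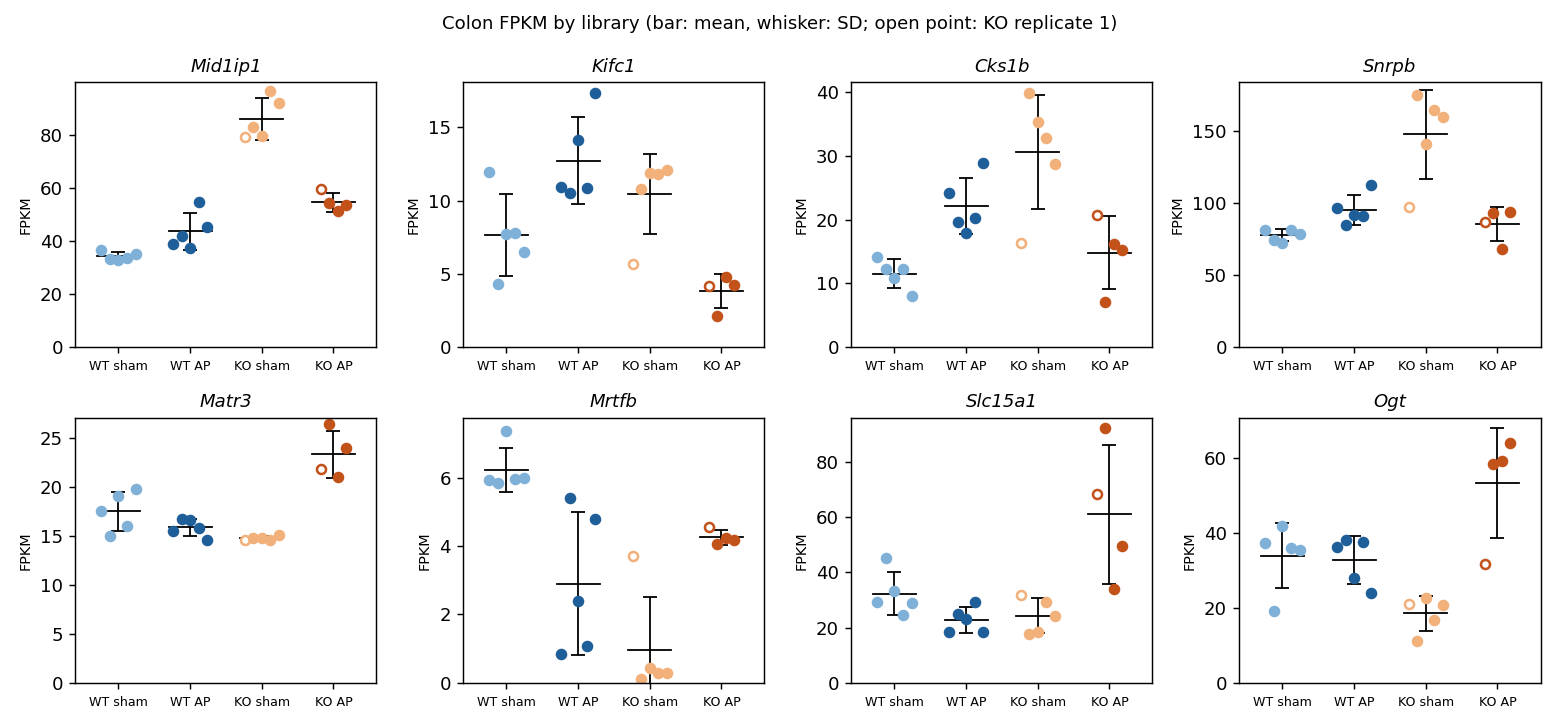
FPKM of 8 genes in each colon library by group, with the group mean (bar) and SD (whisker, cut at 0); the open points are KO sham replicate 1 and KO AP replicate 1. Mid1ip1, Kifc1, Cks1b and Snrpb move up in wild type and down in the knockout, Matr3, Slc15a1 and Ogt are high in KO AP, and Mrtfb is near 0 in 4 of 5 KO sham libraries.

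Of the gene lists, the cell cycle list stood farthest from the background in its count. Of its 25 members, all tested, 23 had a negative interaction at an unadjusted p under 0.05, where 11.4% of all genes did, and none had a positive one. None passed the adjusted threshold with all libraries, and 18 passed it without KO sham replicate 1, all negative, where 5.6% of all genes did. The median interaction was −1.40, from a median response of 0.53 in wild type and −0.84 in the knockout, beside a median interaction of −0.03 over all genes. The 25 interactions ran from −2.23 to −0.63. Ube2c, the ubiquitin-conjugating enzyme of the anaphase-promoting complex, was at 53.0, 36.3, 32.0, 38.8 and 29.8 FPKM in WT sham and 68.2, 49.7, 75.0, 76.9 and 132.1 in WT AP. Its knockout values were 71.8, 161.8, 139.7, 119.6 and 109.4 FPKM in sham and 98.7, 20.9, 73.4 and 59.0 in AP. KO sham replicate 1 was the lowest sham library and KO AP replicate 1 the highest AP library, and the knockout groups overlapped only through KO sham replicate 1. The interaction of Ube2c was −2.09 ± 0.49 (SE), adjusted p = 0.107, and −2.26 without KO sham replicate 1, adjusted p = 0.0120. Birc5, which codes for survivin of the chromosomal passenger complex, had 13.4 to 29.2 FPKM in WT sham and 26.7 to 74.0 in WT AP. In the knockout it had 27.8, 93.4, 52.7, 54.8 and 65.1 FPKM in sham and 42.0, 9.02, 30.1 and 20.9 in AP, and again only KO sham replicate 1 lay within the AP range. Its interaction was −2.23, that of the mitotic kinase Plk1 −1.21, and that of Cdk1, the kinase of mitotic entry, −1.63. Averaged over the list, the level on log2(FPKM + 1) was 3.12 to 4.09 in WT sham, 3.85 to 4.68 in WT AP, 3.28 to 4.57 in KO sham and 2.40 to 4.29 in KO AP. In the last 2 groups replicate 1 was the lowest and the highest library respectively. The median interaction ran from −1.80 to −1.08 when single libraries were left out, and was −1.29 after correction for transcript length.

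Promoters of 4 cell division genes are printed: Ube2c and Birc5 of the cell cycle list, and Kifc1 and Cks1b, which are not on it. The reason is that many cell cycle genes are known to share a promoter architecture. In it, CCAAT boxes and the cell cycle genes homology region (CHR) lie close to the start. The sequences are the RefSeq promoters of the GRCm38.p6 build, from 250 bases before to 50 after the start of the gene, 5′ to 3′ on the strand of the gene. These coordinates are not those of the mm39 build named by the submitters. Capitals mark TTTGAA (CHR) and CCAAT on either strand, which can overlap each other. The E2F sites TTTGGCGC and TTTCGCGC were searched too and were in none of the 4.
Kifc1 (chr17:33890584-33890883, minus strand): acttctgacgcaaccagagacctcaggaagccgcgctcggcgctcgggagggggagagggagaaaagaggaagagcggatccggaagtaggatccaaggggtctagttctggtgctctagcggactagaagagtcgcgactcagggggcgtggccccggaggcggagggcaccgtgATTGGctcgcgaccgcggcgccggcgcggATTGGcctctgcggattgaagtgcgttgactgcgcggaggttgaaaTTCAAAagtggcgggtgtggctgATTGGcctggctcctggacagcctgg
Cks1b (chr3:89418242-89418541, minus strand): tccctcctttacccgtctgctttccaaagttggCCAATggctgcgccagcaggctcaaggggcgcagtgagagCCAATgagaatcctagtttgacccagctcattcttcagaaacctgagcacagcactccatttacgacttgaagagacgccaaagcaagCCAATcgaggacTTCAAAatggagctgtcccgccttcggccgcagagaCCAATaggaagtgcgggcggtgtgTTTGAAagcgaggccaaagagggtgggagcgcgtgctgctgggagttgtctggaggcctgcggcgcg
Ube2c (chr2:164769679-164769978, plus strand): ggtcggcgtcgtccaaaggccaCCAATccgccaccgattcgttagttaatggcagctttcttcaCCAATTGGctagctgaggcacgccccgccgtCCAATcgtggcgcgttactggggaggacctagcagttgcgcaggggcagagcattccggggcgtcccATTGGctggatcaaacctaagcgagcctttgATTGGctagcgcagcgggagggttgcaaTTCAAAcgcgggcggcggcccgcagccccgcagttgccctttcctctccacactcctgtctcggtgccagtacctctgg
Birc5 (chr11:117848987-117849286, plus strand): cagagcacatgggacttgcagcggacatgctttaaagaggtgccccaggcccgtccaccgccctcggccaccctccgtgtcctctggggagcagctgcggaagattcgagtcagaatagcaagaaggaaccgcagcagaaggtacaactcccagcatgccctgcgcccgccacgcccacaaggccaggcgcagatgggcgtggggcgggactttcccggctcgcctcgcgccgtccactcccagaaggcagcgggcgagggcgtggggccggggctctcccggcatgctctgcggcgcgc
Kifc1 held 1 CHR match and 3 CCAAT matches, Cks1b held 2 and 4, Ube2c held 1 and 6, and Birc5 held neither in this window. Of the 25 members of the cell cycle list, 23 had a promoter in the table. CCAAT was in 87.0% of these and in 42.4% of the 10596 tested genes with a promoter, and TTTGAA in 52.2% and 14.9%. Either E2F sequence was in 17.4% and 1.7%. A match is a description of the letters, and these shares were not tested.

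Genes of protein folding in the endoplasmic reticulum followed the same direction. On the unfolded protein response list 9 of 24 tested members had a negative interaction at an unadjusted p under 0.05 (11.4% of all genes) and 1 a positive one (7.43%). Without KO sham replicate 1, 6 passed the adjusted threshold, all negative, where 5.6% of all genes did. The median was −0.38. Creld2, a chaperone-like secreted protein of the reticulum, was at 26.9, 25.2, 24.0, 34.3 and 36.8 FPKM in WT sham and 46.1, 32.1, 37.0, 37.7 and 59.9 in WT AP. The knockout values were 21.5, 47.9, 49.3, 57.1 and 55.9 FPKM in sham and 26.1, 23.1, 23.2 and 23.4 in AP. The KO AP libraries lay close together and below every KO sham library except replicate 1. The interaction was −1.35 ± 0.32 (SE), adjusted p = 0.107, and −1.60 without KO sham replicate 1, adjusted p = 0.00321. Manf (−1.31), the disulfide isomerase Pdia6 (−1.16) and Sdf2l1 (−1.55), all of the reticulum, showed adjusted p-values of 0.107. On the heat shock list, whose median was −0.09 and turned positive under upper quartile scaling and without mitochondrially encoded genes, 3 of 22 members were negative and 1 positive at an unadjusted p under 0.05. The same 4 passed without KO sham replicate 1, where 5.6% of all genes passed with a negative and 2.2% with a positive interaction. Each is given with its interaction over all libraries and then its adjusted p without KO sham replicate 1: the Hsp90 cochaperone Ahsa1 (−0.90, adjusted p = 0.00651), the mitochondrial chaperonins Hspd1 (−0.89, 0.0227) and Hspe1 (−0.98, 0.0391), and the heat shock factor Hsf2 (0.69, 0.0395).

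All 30 cytosolic ribosomal protein genes tested had negative interactions, with a median of −0.35, and 4 of them reached an unadjusted p under 0.05, near the 11.4% of all genes. All 28 nuclear-encoded respiratory chain genes were negative too, with a median of −0.60 and 5 at that level. The 13 mitochondrially encoded genes were all positive, with a median of 0.83, and 3 of them reached it (mt-Atp8, mt-Nd5 and mt-Nd4l, at 1.64, 1.45 and 1.74). For mt-Nd5, a subunit of complex I, the 5 KO sham libraries spread from 239 to 990 FPKM and the 4 KO AP libraries from 797 to 1777, while wild type lay between 801 and 2003. After correction for transcript length the medians were −0.19 for the ribosomal, −0.47 for the respiratory chain and 0.97 for the mitochondrially encoded genes. The share of mitochondrial transcripts moved with the groups as given above, and its part in these values was not tested.

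Splicing regulators and transcripts known to be held in the nucleus were mixed. On that list 6 of 30 members had positive interactions at an unadjusted p under 0.05 (7.43% of all genes) and 1 a negative one, with a median of 0.24. Ogt codes for the enzyme that attaches N-acetylglucosamine to nuclear and cytoplasmic proteins, and its transcript is known for a retained intron. It was at 37.2, 19.1, 41.8, 36.1 and 35.4 FPKM in WT sham and 36.3, 38.2, 28.1, 37.7 and 23.9 in WT AP. Knockout sham libraries had 21.2, 11.3, 22.7, 16.7 and 20.8 FPKM, and knockout AP libraries 31.7, 58.5, 59.1 and 64.0, without overlap. KO AP replicate 1 was the low one. The interaction was 1.49 ± 0.34 (SE), adjusted p = 0.107, and 1.72 without KO AP replicate 1, adjusted p = 0.0423. The CDC-like kinase Clk1 had 0.66 and the splicing protein gene Luc7l3 0.47, against −0.70 for the SR protein gene Srsf3.

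Barrier genes of the epithelium did not form one pattern. On the junction list the median was 0.02, with 4 of 28 members positive at an unadjusted p under 0.05 (7.43% of all genes) and none negative. Tjp1, the scaffold ZO-1 of tight junctions, had 18.1, 18.7, 20.6, 15.1 and 19.4 FPKM in WT sham and 15.4, 16.8, 14.2, 13.8 and 14.0 in WT AP. In the knockout it had 12.5, 9.65, 9.48, 9.58 and 10.3 FPKM in sham and 19.5, 12.7, 14.8 and 9.61 in AP. The knockout groups overlapped, with KO AP replicate 5 among the sham libraries. Its interaction was 0.67 ± 0.21 (SE), adjusted p = 0.116, and 0.74 without KO sham replicate 1, adjusted p = 0.0390. Ocln, the tight junction membrane protein occludin, was at 22.7 to 38.1 FPKM in WT sham and 19.7 to 25.5 in WT AP, and at 13.1 to 22.5 in KO sham and 16.5 to 27.0 in KO AP. Its interaction of 0.71, adjusted p = 0.147, did not pass without KO sham replicate 1 either, at 0.0512. The junction protein Cgnl1 (0.67) and the desmosomal cadherin Dsg2 (0.85) had adjusted p-values of 0.161 and 0.163. Cldn1 was not among the genes tested.

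Goblet cell and colonocyte genes differed in the direction of their medians. On the goblet list the median interaction was −0.42, with 4 of 20 members negative at an unadjusted p under 0.05 (11.4% of all genes) and none positive. Muc2 did not pass (interaction −1.04, 95% interval −2.35 to 0.26, adjusted p = 0.369), and its KO sham libraries alone spread from 128 to 847 FPKM. Agr2, the disulfide isomerase that folds mucin, was at 652 to 862 FPKM in WT sham and 745 to 1365 in WT AP. In the knockout it was at 578, 911, 1420, 936 and 1180 FPKM in sham and 934, 411, 679 and 387 in AP, with replicate 1 at the far end of each group. Its interaction was −1.18, adjusted p = 0.124, and −1.36 without KO sham replicate 1, adjusted p = 0.0250. Spink4, a goblet cell peptide, had −1.45 and the goblet cell transcription factor Spdef −1.10, with adjusted p-values of 0.136 and 0.196. On the colonocyte list the median was 0.42, with 6 of 25 members positive at an unadjusted p under 0.05 (7.43% of all genes). None was negative at that level. Slc26a3 was at 209, 240, 318, 201 and 183 FPKM in WT sham and 148, 153, 187, 252 and 146 in WT AP. Its knockout values were 480, 455, 193, 220 and 239 FPKM in sham and 565, 603, 886 and 429 in AP. Only KO AP replicate 5 lay within the KO sham range. The interaction was 1.41 ± 0.39 (SE), adjusted p = 0.107, and 1.58 without KO sham replicate 1, adjusted p = 0.0157. The carbonic anhydrases Car2 and Car4 had 1.05 and 0.73, and the monocarboxylate transporter Slc16a1 0.72, none of which passed with or without that library. None of the 16 stem cell and Wnt target genes tested had an unadjusted p under 0.05, and their median was 0.19. In whole tissue, fewer cells of a type and less RNA per cell cannot be told apart.

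Interferon and antigen presentation genes had large median interactions that rested on few libraries. On the interferon list all 27 members were negative, with a median of −1.49, yet only 2 had an unadjusted p under 0.05, a smaller share than the 11.4% of all genes. Averaged over the list, the level on log2(FPKM + 1) was 3.05 in KO sham replicate 1, 2.48 in KO AP replicate 3 and 2.46 in KO AP replicate 5. The other 16 libraries lay between 4.55 and 6.59. With KO sham replicate 1 left out the median was −2.15, and with KO AP replicate 3 left out it was −0.83. Bst2, which codes for tetherin, an antiviral membrane protein, was at 84.7 to 302 FPKM in WT sham and 200.5 to 314 in WT AP. In the knockout it was at 25.5, 692, 265, 259 and 98.2 FPKM in sham and 77.7, 25.1, 126 and 33.5 in AP, groups that overlapped. Its interaction was −2.23 ± 0.93 (SE), adjusted p = 0.213, and it passed without KO sham replicate 1 at 0.0230. Psmb8 and Psmb9, inducible proteasome subunits that serve antigen presentation, had −2.31 and −1.95 and also passed without that library, at 0.00954 and 0.0186. Psmb8 was at 13.8, 201, 69.6, 98.3 and 323 FPKM in KO sham and at 46.7, 14.8, 41.6 and 15.3 in KO AP, against 94.6 to 151 in WT sham and 98.1 to 272 in WT AP. On the antigen presentation list the median was −1.03, with 3 of 16 negative at an unadjusted p under 0.05 (11.4% of all genes), and −0.48 without KO sham replicate 5.

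T and NK cell genes showed a single knockout library apart from the rest. Averaged over the 24 tested genes of that list, the level on log2(FPKM + 1) was 3.41 in KO sham replicate 5 and 0.56 to 0.98 in the other 8 knockout libraries, against 1.71 to 4.02 in wild type. The median interaction was −0.67, and −0.12 without KO sham replicate 5, with 1 positive and 1 negative member at an unadjusted p under 0.05. Without KO sham replicate 1 the positive member passed the adjusted threshold (2.2% of all genes) and no negative one did (5.6% of all genes). The negative member was the T cell kinase Lck (−1.30), at 12.8 FPKM in KO sham replicate 5, 2.6 to 3.83 in the other KO sham libraries and 1.38 to 1.67 in KO AP.

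Neutrophil genes gave no interaction above the background. None of the 13 tested members of the mature neutrophil list had an unadjusted p under 0.05, and their median moved from −0.36 to −0.01 without KO sham replicate 5. S100a8 and S100a9, the calprotectin subunits of neutrophils, were low in every library, at 0 to 5.35 and 0 to 8.29 FPKM. Their interactions were −0.64 (95% interval −1.88 to 0.61) and −1.27 (95% interval −2.66 to 0.11). Ly6g, a surface protein used to mark neutrophils, was at 10.3 to 76.8 FPKM in wild type and 116 to 768 in the knockout, with an interaction of 1.31 and an adjusted p of 0.322. Between genotypes the mean log2(FPKM + 1) over the 13 tested members went the other way. It was 2.459 in WT sham, 2.595 in WT AP, 1.904 in KO sham and 1.786 in KO AP. Ly6g thus stood apart from S100a8, S100a9 and that mean, and which cells carried it was not tested. Il1b, the cytokine interleukin 1β, was at 13.0 FPKM in KO sham replicate 5 and at 0.738 to 2.16 in the other knockout libraries, and had an interaction of −1.25, adjusted p = 0.312. Padi4 was not among the genes tested. Pecam1, the endothelial partner of CD177, had an interaction of −0.04 (95% interval −0.60 to 0.51), adjusted p = 0.948. On the partner and transmigration list 2 of 11 members had an unadjusted p under 0.05, Cd177 itself and Cd99l2 (0.47). At an unadjusted p under 0.05, 1 of 19 on the macrophage list was positive and 1 negative (7.43% and 11.4% of all genes). The positive one was Mertk, a receptor for the uptake of dying cells, at 1.07 (adjusted p = 0.107, and 0.00594 without KO sham replicate 1). The negative one was Aif1, at −1.06.

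**Figure D4:**
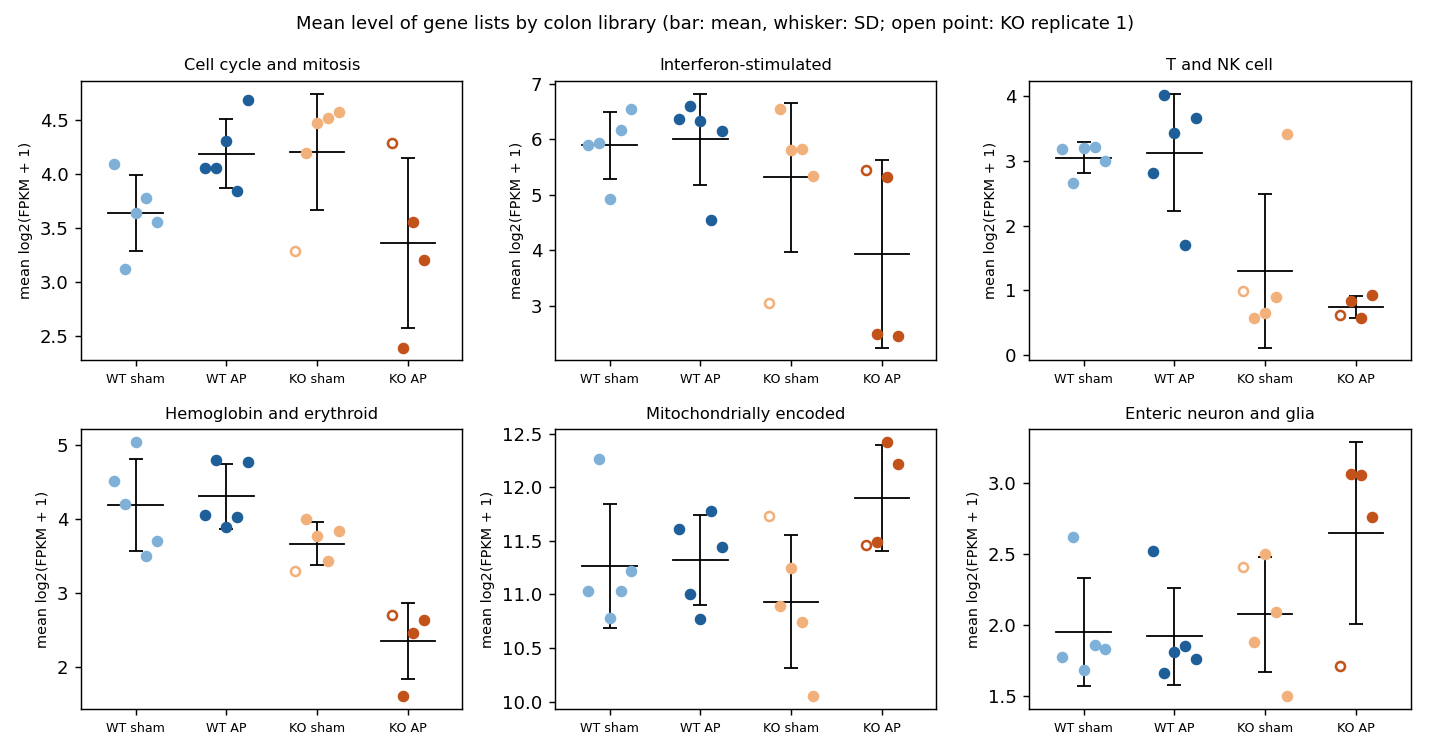
Mean log2(FPKM + 1) over the tested members of 6 gene lists in each colon library, with the group mean (bar) and SD (whisker); the open points are KO sham replicate 1 and KO AP replicate 1. The open points lie at the far end of their groups for the cell cycle list, KO sham replicate 5 stands alone among knockout libraries for T and NK cell genes, and all 4 KO AP libraries lie below all others for hemoglobin.

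Hemoglobin transcripts, which mark red cells in the tissue, had the lowest median interaction of all lists, −1.79. Of 6 tested members all were negative and 5 had an unadjusted p under 0.05 (11.4% of all genes). The average over the list on log2(FPKM + 1) was 1.60 to 2.71 in KO AP and 3.30 to 5.04 in the other 15 libraries, without overlap, and here KO sham replicate 1, at 3.30, was not within the KO AP range. Hbb-bs, an adult beta globin, was at 69.9, 44.8, 128, 23.3 and 30.3 FPKM in WT sham and 37.3, 96.2, 40.7, 36.8 and 85.9 in WT AP. It was at 18.0, 36.3, 26.1, 18.3 and 30.0 FPKM in KO sham and 8.45, 0.788, 5.97 and 6.60 in KO AP. The interaction was −2.38 ± 0.68 (SE), adjusted p = 0.107, and −2.49 without KO sham replicate 1, adjusted p = 0.0423. The alpha globins Hba-a1 (−2.03) and Hba-a2 (−1.94) passed without that library too, but globin genes are near copies and reads may be split between them. How much blood each piece of tissue held was not measured.

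On the endothelial list 3 of 17 were negative at an unadjusted p under 0.05, beside 11.4% of all genes, with a median of −0.23. Eng, the endothelial coreceptor endoglin, was at 8.77, 8.01, 10.2, 9.56 and 8.71 FPKM in WT sham and 9.38, 11.4, 11.2, 8.37 and 8.11 in WT AP. Knockout values were 10.9, 7.61, 11.1, 10.7 and 9.84 FPKM in sham and 5.12, 4.41, 6.93 and 7.23 in AP. All 4 KO AP libraries lay below every other library. Its interaction was −0.76 ± 0.20 (SE), adjusted p = 0.107, and −0.73 without KO sham replicate 1, adjusted p = 0.0407. Plvap, of the endothelial diaphragm, had −1.31 and did not pass without that library, at 0.0562. On the enteric neuron list 7 of 17 were positive at an unadjusted p under 0.05 (7.43% of all genes) and none negative at that level. The median was 0.60, and 1.08 without KO AP replicate 1. Vip, an inhibitory neuropeptide, was at 16.6 to 32.1 FPKM in WT sham, 16.3 to 29.3 in WT AP and 9.82 to 23.6 in KO sham. In KO AP it was at 18.9, 80.5, 43.0 and 59.2 FPKM, so that only replicate 1 lay within the range of the others. Its interaction was 1.27, adjusted p = 0.151, and 1.67 without KO AP replicate 1, adjusted p = 0.0438. The neuronal nitric oxide synthase Nos1 (0.99) and the synaptic protein Syt1 (0.97) had adjusted p-values of 0.187 and 0.151. Smooth muscle and matrix genes had no member at an unadjusted p under 0.05 among 19 and 24.

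Metabolic lists differed in the sign of their medians. Members counted as positive or negative in this paragraph are those at an unadjusted p under 0.05, as were 7.43% and 11.4% of all genes. Lipogenesis and sterol synthesis genes had a median of −0.50, with 4 of 20 negative at that level and none positive. By sign alone 16 of them were negative. Among them Fdps, of the mevalonate pathway, had −1.27 and passed without KO sham replicate 1 (adjusted p = 0.0247). Fasting and fatty acid oxidation genes had a median of 0.41, with 4 of 16 positive, Ppargc1a (0.85) and Cpt1a (0.55) among them. Cytochrome P450 and phase II genes had a median of 0.46 with 4 of 23 positive. Among these, the monooxygenase Fmo5, at 1.87, passed without KO sham replicate 1 (adjusted p = 0.0294). The carboxylesterase Ces2a, at 1.49, did not (0.107), and WT sham replicate 2 held the high end of both genes in wild type, with 14.2 and 113.9 FPKM. Clock genes had a median of 0.33 with 4 of 20 positive, Per2 (1.03) among them, and no source used here gives the time of day of sampling. Of glucocorticoid-responsive genes 2 of 20 were positive, Klf9 (0.69) and Sgk1 (1.05), and of NRF2 targets 2 were positive and 3 negative of 27. Of 13 EGF family genes tested 1 was positive and 2 negative, and the family held the ligands Areg (−0.72) and Ereg (−0.88) and the receptor Erbb3 (0.82). Of 18 immediate early genes tested, Fosl2 (0.79) was positive and Ier2 (−0.66) and Egr1 (−1.48) negative. The counts of the NRF2, EGF and immediate early lists were near the shares of all genes.

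**Figure D5:**
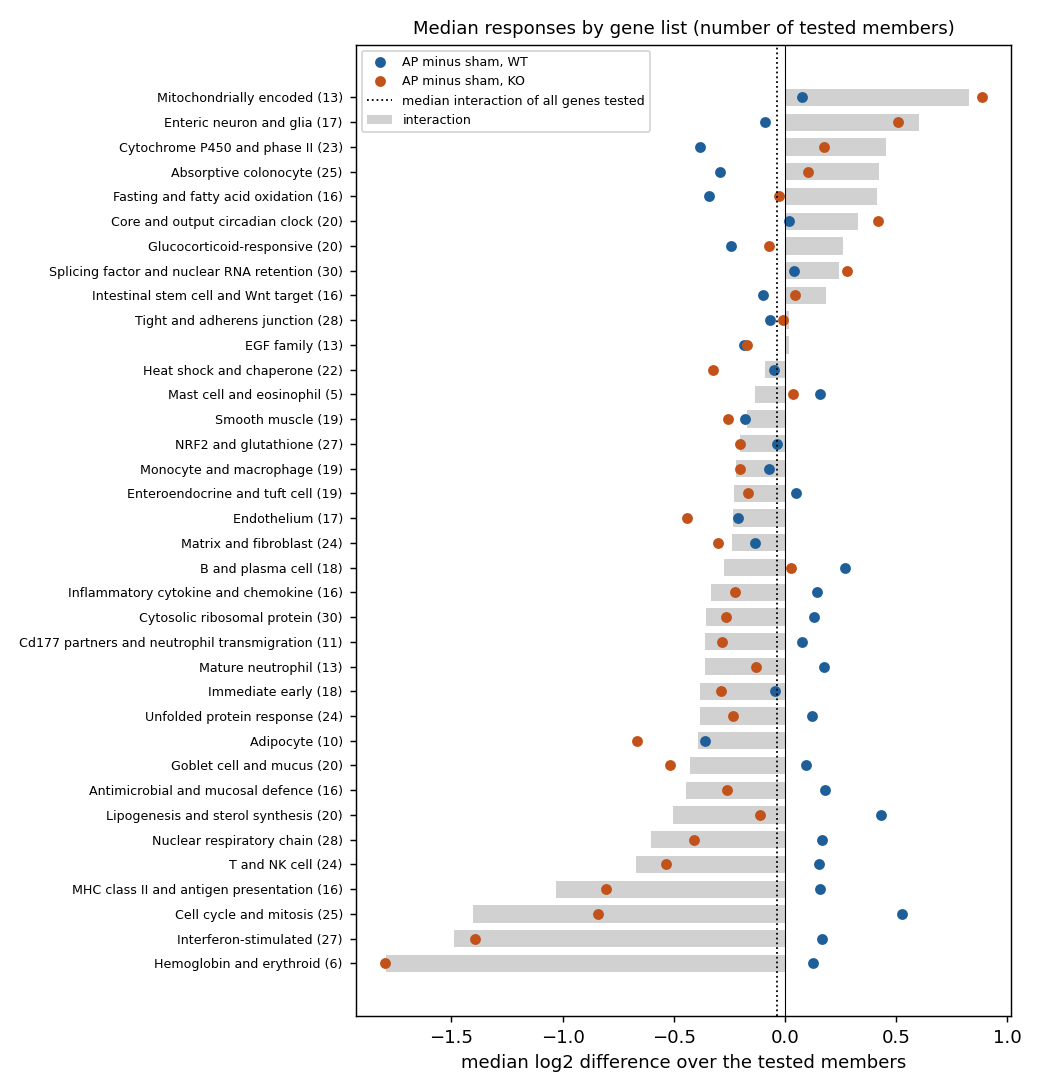
Median log2 difference over the tested members of each gene list with at least 5 of them: AP minus sham in wild type (blue), in the knockout (orange), and the interaction (grey bar, starting at 0); the dotted line is the median interaction of all genes tested, −0.03. Hemoglobin (−1.79), interferon-stimulated (−1.49) and cell cycle genes (−1.40) have the lowest medians and mitochondrially encoded genes (0.83) the highest.

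The remaining lists are given by their members at an unadjusted p under 0.05. Members counted only by sign stand beside 7890 negative interactions among all 15001 genes tested. There were none of 18 on the B and plasma cell list (median −0.28), none of 5 on the mast cell and eosinophil list (−0.13), none of 4 on the pancreatic acinar list (0.03) and none of 2 on the neutrophil granule precursor list (−0.16). The last 2 lists had 18 and 12 genes before the filter. Their tested members include Zg16, also on the goblet list, and Prom1, also on the stem cell list. Neither median therefore describes the named cell type alone. The cytokine list had a median of −0.33, with 11 of 16 members negative and 1 at that level (Tnf, −0.88). On the antimicrobial list the median was −0.44, with 13 of 16 negative and 1 at that level each way. The adipocyte list had a median of −0.39, with 7 of 10 negative and 1 at that level (Fabp4, −1.12). The enteroendocrine and tuft cell list had a median of −0.23, with 2 positive and 3 negative of 19 at that level. On that last list the leukotriene pathway gene Alox5ap (−0.82) was among 2 negative members that passed without KO sham replicate 1, at an adjusted p of 0.0446. Over all genes 5.6% passed with a negative interaction in that fit.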

How the data were processed

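RNA sequencing was deposited as FPKM per gene, a level the authors scaled to transcript length and library total. Per the labels' protocols, mRNA was enriched from Trizol-extracted RNA and sequenced on an Illumina instrument. The submitters' processing notes list HISAT2 2.1.0 with StringTie 1.3.3b and, as the genome build, mm39, but not which step each served. Annotation, handling of strand and read filters are not given there, so reads of overlapping or antisense genes cannot be told apart.

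Groups came from the genotype and treatment labels, and p-values measure the spread between these libraries, which may be technical in part. The lung table was not used. Of 55357 genes, 52081 matched a symbol. The 15001 genes that reached 1 FPKM in 4 or more colon libraries were analysed as log2(FPKM + 1), which shrinks differences of low genes. A model with 1 mean for each of 4 groups was fitted across all of them with limma 3.58.1 in R 4.3.3, with variances that follow the level, and 1 contrast was tested, two-sided, with Benjamini-Hochberg adjustment. Read totals were recovered from low values of genes with a single transcript, of which 98.8% to 99.4% per library came out as whole reads within 0.05 read. This was not done for genes with several transcripts, so no count test was run. The model was tested on simulated data first. Transcript lengths came from GENCODE M21 (GRCm38), matched for 99.6% of genes tested. Python 3.11.15 with pandas 2.3.3 and matplotlib 3.10.9 served the other steps.

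The 38 lists came from general knowledge of the tissue, and the comparison, members and lists were chosen with earlier results of these data known. As the count that passed was under 10, the genes named were the 20 of lowest p that averaged 2 FPKM or more in some group, without predicted genes, clones and pseudogenes, with up to 4 lowest-p members of each list and 10 genes tied to the question. Which list members are given library by library was chosen after their values were seen, and some named members are not reported here. There were 34 alternatives in pseudocount, filter, scaling, variance model, block, length and libraries.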

Additional observations from a re-analysis of the deposited data

Results flagged for a closer look

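Dixon's gap ratio at 95% was applied to 202 sets of 4 or 5 libraries (1 gene, list mean or library measure in 1 group), and 17 exceeded it. Chance flags about 1 in 20 such sets when they are chosen beforehand. Here the sets share libraries, and they include genes chosen by lowest p or after their values were seen. The count of 17 can therefore not be held against that rate.

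Libraries already described as standing apart made up many of the 17. In KO sham, replicate 1 was low for Kifc1 (5.69 FPKM against 10.8 to 12.1 in the other libraries of its group), H2afx (47.4 against 85.9 to 102.5) and Creld2 (21.5 against 47.9 to 57.1), and high for Mrtfb (3.72 against 0.0996 to 0.439). In KO AP, replicate 1 was low for Ogt (31.7 FPKM against 58.5 to 64.0) and slightly high for Creld2 (26.1 against 23.1 to 23.4). In KO sham, replicate 5 was high for Il1b (13.0 FPKM against 0.962 to 2.16) and for the mean log2 level of T and NK cell genes (3.41 against 0.56 to 0.98).

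In wild type, WT sham replicate 2 was low in its mean correlation with its group (0.942 against 0.9715 to 0.9753) and for Ogt (19.1 FPKM against 35.4 to 41.8), and high for Mertk (10.9 against 7.60 to 8.08) and the mean log2 level of enteric neuron genes (2.62 against 1.68 to 1.86). WT AP replicate 1 was likewise high for enteric neuron genes (2.52 against 1.66 to 1.85). WT sham replicate 3 was high for Mrtfb (7.35 FPKM against 5.84 to 5.99) and for the mean log2 level of mature neutrophil genes (2.69 against 2.35 to 2.44). WT AP replicate 4 was low for interferon-stimulated genes (4.55 against 6.14 to 6.59), and WT AP replicate 5 was high for S100a8 (5.35 FPKM against 0.470 to 1.24).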

How the results depend on the processing

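Over the 34 alternatives, 166 of 170 named genes kept the sign of their interaction; the exceptions were Pecam1, Mcpt1, Cma1 and Prg2. All 20 genes with the lowest p kept theirs, and 31 of 38 list medians did. The number past the adjusted threshold ran from 0 to 1170 when single libraries were left out (higher in KO 0 to 330, lower 0 to 840). It was 2 without a filter on low values, 1 higher and 1 lower. These were Mid1ip1 (−0.97, adjusted p = 0.0252) and Gm13378 (0.54, adjusted p = 0.00409), which was at 0 in all knockout libraries and at most at 0.701 FPKM in wild type. It was 1884 with weights estimated per library (621 higher, 1263 lower), an alternative chosen after seeing the data that gives libraries far from their group less weight. It was 0 in all other alternatives.

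At an unadjusted p under 0.05, single omissions gave 2118 to 3825 genes (824 to 1519 higher, 1294 to 2306 lower), and library weights 4593 (1923 higher, 2670 lower). Positive counts became 1875 without a filter, 648 at 5 FPKM or more and 1803 with upper quartile scaling, and the negative count 965 without mitochondrially encoded genes. With the replicate number as a block 0 genes passed and 2375 had an unadjusted p under 0.05. The numbers did not pair the libraries: of 27 same-numbered pairs 7 had a correlation over 0.1 (range −0.52 to 0.465), and 3 of 19 libraries correlated best with their own number, so the block with the length correction was not run. The median SE of 0.26 (log2) limits what 4 or 5 libraries per group can show.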
